A study of Homo sapiens with 8 samples.

Results

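Splicing factor genes were followed through 72 h of drug treatment in HL60, a cell line from a human acute promyelocytic leukaemia. The genes are those of the deposited expression table whose symbols begin with SRSF and a digit, HNRNP, SF3A, SF3B, SNRP, PRPF or U2AF. This naming rule took 65 of the 9543 genes in the table and used no measured value. They comprise 11 SR proteins, 22 heterogeneous nuclear ribonucleoproteins (hnRNPs), 9 SF3 subunits, 11 Sm and U snRNP proteins, 10 PRPF proteins and 2 U2AF genes. The cells received VC (vitamin C) together with DZNep, DZNep alone, VC alone, or phosphate-buffered saline (PBS) as the drug-free control. DZNep (3-deazaneplanocin A) blocks S-adenosylhomocysteine hydrolase and so lowers methylation by enzymes that use S-adenosylmethionine. Each of the 4 groups had 2 libraries of total RNA, 8 in all, and drug doses are not given in the sources used here. Separate cultures are not stated for libraries within a group, so p-values measure only how far such libraries differ, which may be technical.

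The spliceosome removes introns in steps that different members of these families serve. U1 snRNP pairs with the start of the intron, U2AF binds the pyrimidine-rich tract near its end, and U2 snRNP with its SF3A and SF3B subunits settles on the branch site. Sm proteins form the ring around the U snRNAs, and PRPF proteins act in the tri-snRNP and in spliceosome activation. SR proteins and hnRNPs bind exons and introns and steer which splice sites are used, often in opposite directions. In acute myeloid leukaemia and myelodysplastic syndromes, SF3B1, SRSF2 and U2AF1 are recurrently mutated genes.

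The deposited values are normalized whole numbers, called units here, and every library holds the same set of sorted values, with a total of 1988507 and a median of 88. Read depth per library is therefore unknown, and the agreement of the 2 libraries in each group sets the precision. Values are comparable between libraries for 1 gene but not between genes. The median absolute log2 difference between the libraries of a group was 0.10 over the 65 genes in the VC with DZNep group, 0.10 in the DZNep group, 0.08 in the VC group and 0.15 in the PBS group, against 0.17, 0.18, 0.15 and 0.20 over all genes tested. MPO, the myeloperoxidase of the granulocyte lineage, had 3652 and 3652 units with VC and DZNep, 3652 and 3652 with DZNep, 3114 and 3652 with VC, and 3652 and 2726 with PBS. Of 11 myeloid markers 8 were in the table, and their summed value was 8951 to 9602 with VC and DZNep, 7592 to 8964 with DZNep, 5540 to 6136 with VC and 5192 to 5969 with PBS. Of 7 lymphoid markers 2 were in the table (CD2 and CD79A), summing to 38 to 48, 28 to 36, 16 to 19 and 14 to 15 units in the same order of groups. ITGA2B was the only one of 9 erythroid and megakaryocyte markers in the table, at 394 to 413, 620 to 718, 380 to 380 and 374 to 450 units. PECAM1 was the only one of 8 markers of adherent cells, at 55 to 56, 37 to 40, 30 to 34 and 26 to 33 units. The remaining markers, among them ELANE, CD3E, GATA1 and EPCAM, were not analysed here, and no value in the table is 0. The myeloid and lymphoid sums and PECAM1 were higher in every library with DZNep than in every library without it, and ITGA2B was highest with DZNep alone. The myeloid markers did not move together, with 3 higher and 2 lower of the 8 called by limma (adjusted p under 0.05) in VC with DZNep against PBS, and 2 higher and 2 lower in DZNep against PBS. SRGN, the granule proteoglycan serglycin, had a log2 fold change of 2.54 in VC with DZNep against PBS (limma adjusted p = 2.48e-05). CSF3R, the receptor of granulocyte colony-stimulating factor, had -1.46 there (1.18e-05) and CTSG, the granule protease cathepsin G, had -1.80 (0.00199), so the myeloid sum does not stand for every marker. Units are not comparable between genes, and the sums mostly follow the markers with the highest values. The separation of the myeloid sums rested on SRGN. Without it, the summed values of the libraries with DZNep overlapped those of the libraries without DZNep. The part of these shifts in the splicing factor values was not tested, and in bulk RNA fewer cells of a type and less RNA per cell cannot be told apart.

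A limited number of splicing factor genes changed with DZNep, in both directions, and none passed the test with VC alone. With VC and DZNep, 12 of the 65 genes were called against PBS, 9 higher and 3 lower, which is 18.5% against 19.7% of all 9513 genes tested. Genes were called by limma at a Benjamini-Hochberg adjusted p under 0.05 over all genes tested. Over all genes, 9.52% were called higher and 10.2% lower in that comparison, against 13.8% and 4.62% of the splicing factor genes. With DZNep alone, 10 genes were called against PBS, 4 higher and 6 lower, or 15.4% against a background of 13.1% (6.42% higher and 6.63% lower). VC with DZNep against VC called 12 genes, 10 higher and 2 lower, or 18.5% against 15.0% (6.89% higher and 8.14% lower). Fitted to only the libraries compared, VC with DZNep against VC also called 12, but 7 higher and 5 lower, and 8 of them were among the 12 above. In the fit to all 8 libraries the splicing factor shares were thus near those of all genes. For VC with DZNep against PBS and against VC more members were called higher than lower. Without an intensity trend in limma's variance prior, the shares were 9.23%, 6.15% and 4.62% in the order above. Those of all genes were then 13.9%, 7.77% and 9.76%. VC with DZNep against PBS shares libraries with each of the other two comparisons, so these are not all separate tests.

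VC against PBS called 0 of 65 genes, and 0% of all genes. At an unadjusted p under 0.05, limma gave 2 of the 65 genes and 462 of all genes there. VC with DZNep against DZNep also called 0 of 65, against 0.673% of all genes, with 9 of the 65 and 1280 of all genes at an unadjusted p under 0.05. The interaction, the change made by VC in the presence of DZNep minus that in its absence, called 0 of 65 and 0.0210% of all genes, with 6 of the 65 and 740 of all genes at an unadjusted p under 0.05. In all, 23 of the 65 genes were called in at least 1 comparison and 42 in none. This count was not made over all genes, so it has no background share.

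**Figure D1:**
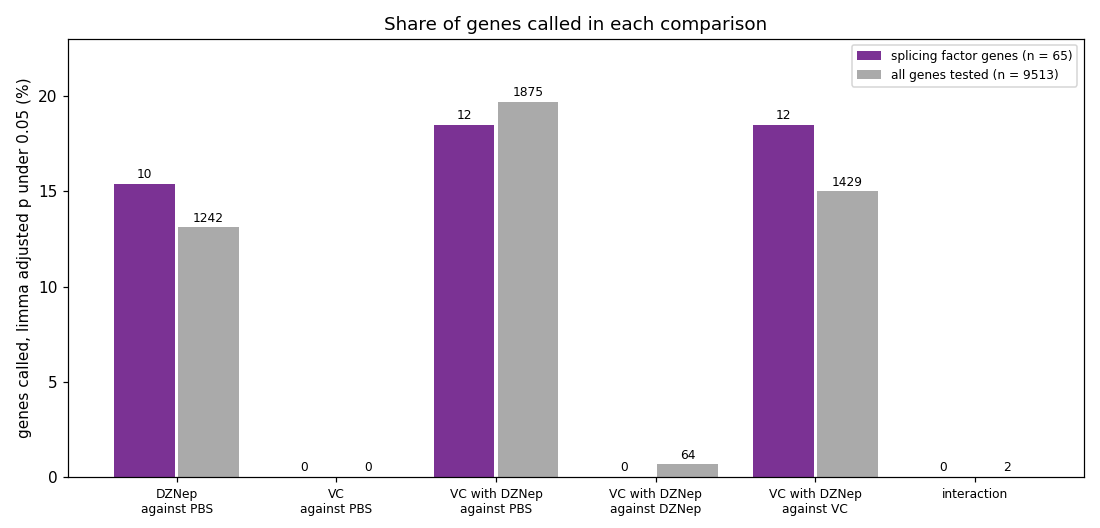
Share of genes called by limma (adjusted p under 0.05, vertical axis, percent) in each of 6 comparisons, for the 65 splicing factor genes and for all 9513 genes tested. The bars of a pair are close in the 3 comparisons where DZNep was added, at 15.4% and 13.1%, 18.5% and 19.7%, and 18.5% and 15.0%, and the splicing factor bars are at 0 in the other comparisons.

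Changes of the splicing factor genes were mostly small. At least 1.5-fold differences, with or without a call, were seen for 6.15% of them in VC with DZNep against PBS, 10.8% in DZNep against PBS and 6.15% in VC with DZNep against VC. Over all genes tested these shares were 18.3%, 14.4% and 15.2%. The genes were not matched for level. Among genes with a mean of at least 50, 22.2%, 14.3% and 19% of the splicing factor genes were called in these comparisons. The shares of all such genes were 24.8%, 16.7% and 19.1%. The median log2 fold change of the 65 genes was 0.11 in VC with DZNep against PBS, 0.05 in DZNep against PBS, 0.02 in VC against PBS, 0.06 in VC with DZNep against DZNep and 0.06 in VC with DZNep against VC. Over all genes the medians were 0.01, 0.01, 0.00, 0.00 and 0.01 in the same order. Fold changes are on the log2(value + 1) scale throughout. DZNep against PBS and VC with DZNep against VC share no library, and 3 of the 65 genes, SNRPA, SNRPB2 and HNRNPH3, were called in the same direction in both. That is 30% of the 10 genes called in the first and 25% of the 12 called in the second. Over all genes 718 were called in the same direction in both, 57.8% of 1242 and 50.2% of 1429.

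**Figure D2:**
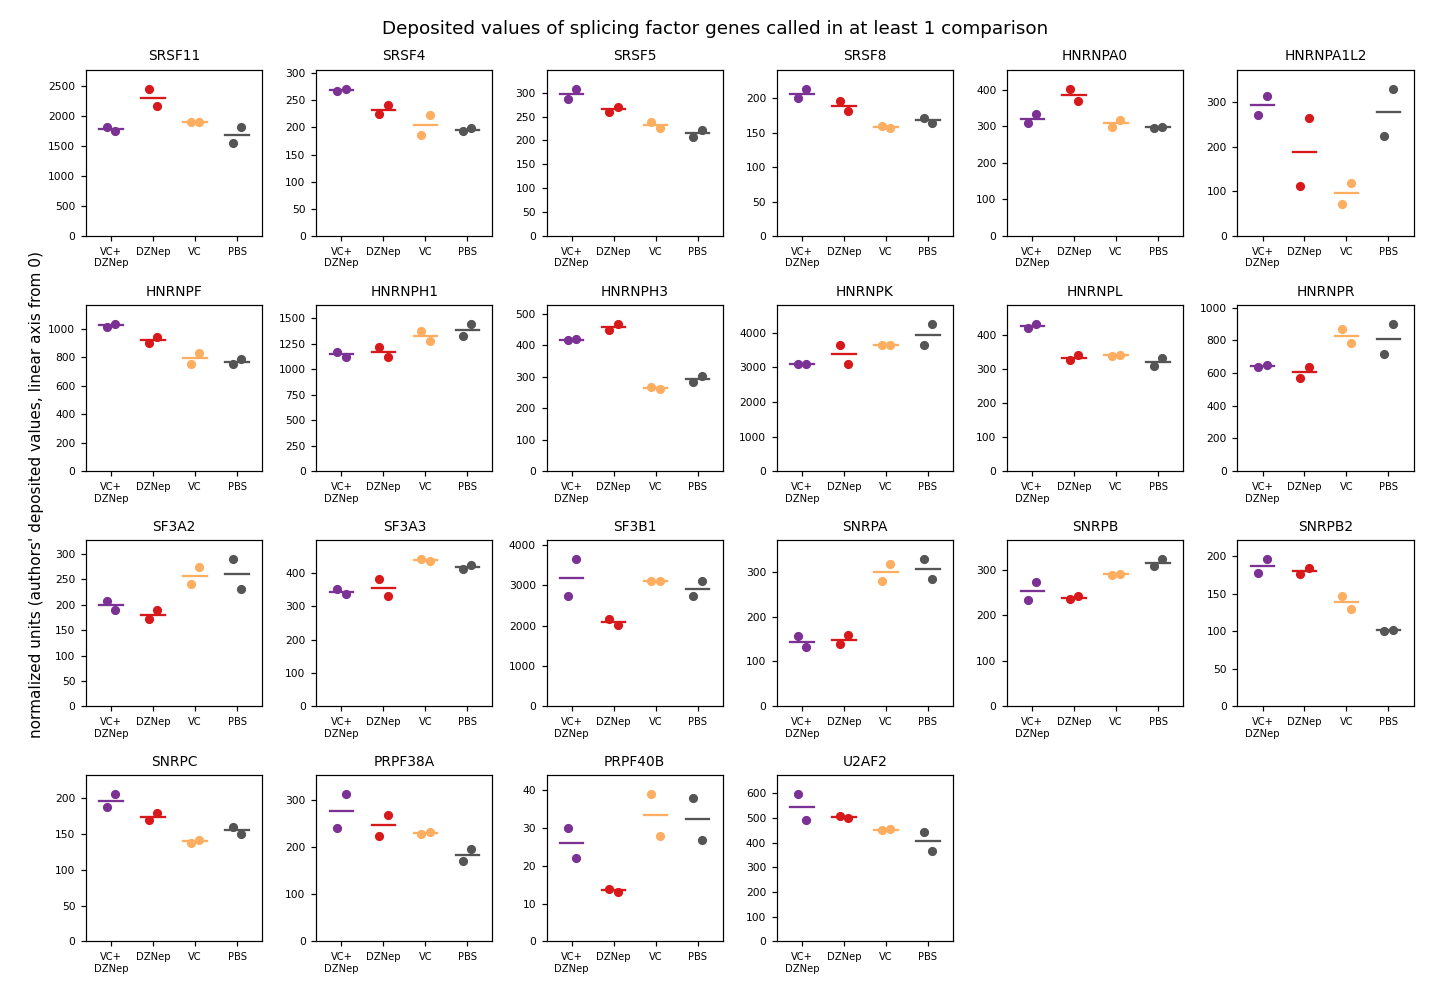
Deposited values (normalized units, linear axes from 0) of 22 of the 23 splicing factor genes called in at least 1 comparison, with 1 point per library and a line at the mean of each group's 2 libraries. SNRPA is low and HNRNPH3 high in all 4 libraries with DZNep, and SF3B1 is lowest in the 2 libraries with DZNep alone.

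Among the U1 and U2 snRNP proteins, SNRPA and SNRPB2 moved in opposite directions. SNRPA (ENSG00000077312, GRCh38 chr19:40750637-40765389, plus strand) encodes the U1 snRNP protein A, which binds a stem-loop of U1 snRNA. SNRPB2 (ENSG00000125870, chr20:16729961-16742563, plus strand) encodes U2 snRNP protein B″, a related RNA-binding protein that joins U2 snRNA. The 250 bases before the RefSeq start of each gene (GRCh38.p14, plus strand, 5′ to 3′) are shown because these genes gave the smallest adjusted p of any splicing factor gene for a decrease and an increase against PBS. The gene spans above are from GENCODE, whose starts differ from those of RefSeq. The SNRPA window lies inside its GENCODE span, and the SNRPB2 window runs past its GENCODE start. Capitals mark matches, on either strand, to any of 7 motifs searched.
SNRPA, chr19:40750953-40751202: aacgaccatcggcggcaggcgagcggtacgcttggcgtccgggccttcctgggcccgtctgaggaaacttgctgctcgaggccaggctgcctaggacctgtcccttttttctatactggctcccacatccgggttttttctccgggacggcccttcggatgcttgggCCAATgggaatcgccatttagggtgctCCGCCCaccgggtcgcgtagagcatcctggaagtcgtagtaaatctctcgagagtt
SNRPB2, chr20:16729776-16730025: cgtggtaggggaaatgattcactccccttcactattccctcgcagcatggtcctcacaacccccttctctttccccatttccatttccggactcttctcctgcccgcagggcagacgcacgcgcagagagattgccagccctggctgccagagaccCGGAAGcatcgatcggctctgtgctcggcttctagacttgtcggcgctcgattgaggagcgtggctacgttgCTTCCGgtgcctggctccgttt

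The SNRPA window holds 1 CCAAT box (CCAAT) and 1 GC box (GGGCGG, here on the minus strand), and the SNRPB2 window holds 2 ETS cores (CGGAAG, 1 on each strand). The other motifs were the E box (CACGTG), a CRE core (TGACG), a YY1 core (GATGGCG) and an NRF1 core (GCATGCG), with no match in either window. Windows were found in RefSeq for 56 of the 65 genes, 76 windows in all, and for 7676 genes of the table, 11189 windows in all. An ETS core was present in 48.7% of the splicing factor windows and 27.9% of all windows, and a CRE core in 42.1% and 28.8%. The other shares were 39.5% and 33.3% for the CCAAT box, 53.9% and 63.9% for the GC box, 11.8% and 8.7% for the E box, 2.63% and 3.45% for the YY1 core and 6.58% and 5.49% for the NRF1 core. Windows of 1 gene can overlap, matches are letters and not sites of binding, and no test was made.

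SNRPA had 156 and 132 units with VC and DZNep, 139 and 158 with DZNep, 280 and 318 with VC, and 328 and 284 with PBS. All 4 libraries with DZNep lay below all 4 without it, at about the same level whether or not VC was present. SNRPA was 2.05-fold lower with DZNep than with PBS (log2 fold change -1.04 ± 0.133 SE, limma adjusted p = 0.00115), 2.12-fold lower with VC and DZNep than with PBS (-1.08 ± 0.133, 0.000424) and 2.07-fold lower with VC and DZNep than with VC (-1.05 ± 0.133, 0.000715). These calls held in 17 of 17 alternative settings in each comparison. The alternatives were other pseudocounts, low-value filters and scalings, no intensity trend in limma's variance prior, a fit to the compared libraries without the other groups, the replicate number as a term, and each library left out in turn. C19orf54, which overlaps SNRPA on the other strand, had 82 and 50, 74 and 62, 80 and 71, and 86 and 66 units in the same order of groups. It was not called, and whether counting used strand is not given in the sources used here.

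SNRPB2 had 177 and 196 units with VC and DZNep, 176 and 184 with DZNep, 147 and 130 with VC, and 100 and 102 with PBS. The libraries of both DZNep groups overlapped each other and were highest, the PBS libraries were lowest, and the VC libraries lay between. SNRPB2 was 1.84-fold higher with VC and DZNep than with PBS (log2 fold change 0.88 ± 0.121 SE, limma adjusted p = 0.000807) and 1.77-fold higher with DZNep than with PBS (0.83 ± 0.121, 0.00218), and both calls held in 17 of 17 alternatives. Its increase in VC with DZNep against VC was smaller (0.43 ± 0.121, limma adjusted p = 0.0386) and was called in 9 of 17 alternatives, over which the adjusted p ran from 0.0292 to 0.239. That call was lost without VC and DZNep replicate 1 or 2 (0.0778 and 0.204), DZNep replicate 1 or 2 (0.0582 and 0.0588) or VC replicate 1 or 2 (0.0926 and 0.239), without the intensity trend (0.0684) and with only the libraries compared (0.0771).

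SNRPC, the U1 snRNP protein C that contacts the paired start of the intron, had 188 and 206 units with VC and DZNep, 170 and 179 with DZNep, 138 and 142 with VC, and 160 and 151 with PBS. It was higher in VC with DZNep against VC (log2 fold change 0.49 ± 0.112 SE, limma adjusted p = 0.0158) and was not called in VC with DZNep against PBS (0.34, 95% interval 0.09 to 0.59, adjusted p = 0.0575). The SNRPC call was lost without VC and DZNep replicate 2 (0.113) or VC replicate 1 or 2 (0.11 and 0.0841), with 0.0127 to 0.113 over 17 alternatives. SNRPB, the Sm B protein of the ring, had 234 and 274 units with VC and DZNep, 236 and 242 with DZNep, 290 and 292 with VC, and 308 and 324 with PBS. It was lower in DZNep against PBS (-0.40 ± 0.106, limma adjusted p = 0.0331), with every library of the DZNep groups under every library of the other groups. This SNRPB call was lost without either DZNep library (0.134 without replicate 1 and 0.116 without 2), either VC library (0.0627 and 0.0628) or either PBS library (0.0707 and 0.117), without the trend (0.0883) and with only the libraries compared (0.0871), over a range of 0.0257 to 0.134. SNRPD1, another Sm ring protein, had 246 and 231, 278 and 272, 270 and 241, and 261 and 250 units with VC and DZNep, DZNep, VC and PBS, and its smallest limma adjusted p over the comparisons was 0.421. Uncalled snRNP genes ranged in log2 fold change from -0.32 (SNRPB) to 0.34 (SNRPC) in VC with DZNep against PBS and from -0.20 (SNRPA1) to 0.38 (SNRPG) in DZNep against PBS.

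Subunits of SF3A and SF3B, the complexes that hold the branch site in U2 snRNP, were called lower with DZNep alone against PBS in 2 of 9 cases and higher in none, where 6.63% of all genes were called lower and 6.42% higher. Of the 9, 7 had a negative log2 fold change, with a median of -0.23 against 0.01 over all genes, of which 50.9% were positive. In VC with DZNep against VC, which shares no library with that comparison, 5 of the 9 were positive (51.2% of all genes). Their median there was 0.004, and 1 was called lower (8.14% of all genes). SF3B1 (ENSG00000115524, chr2:197389784-197435091, minus strand), the large subunit that clamps the branch-site helix, had 2724 and 3648 units with VC and DZNep, 2168 and 2022 with DZNep, 3112 and 3112 with VC, and 2724 and 3112 with PBS. The DZNep libraries were the lowest of the 8, and the other groups overlapped each other. SF3B1 was 1.39-fold lower with DZNep than with PBS (log2 fold change -0.48 ± 0.122 SE, limma adjusted p = 0.0294). From 2724 units the nearest other levels of the common distribution, more than 1% away, lie 0.15 below and 0.19 above on the log2 scale, so this change spans few levels. The SF3B1 call was lost without DZNep replicate 1 or 2 (limma adjusted p = 0.0956 and 0.166), VC replicate 1 or 2 (0.0503 and 0.0502), PBS replicate 2 (0.144) or the intensity trend (0.12), over a range of 0.00624 to 0.166.

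VC added to DZNep gave SF3B1 a log2 fold change of 0.59 ± 0.122 SE against DZNep alone, with a limma adjusted p of 0.0614 that did not pass. It was the smallest p among the 65 genes in that comparison. SF3B1 was called there in 4 of 17 alternatives, among them median-of-ratios scaling (limma adjusted p = 0.0445), trimmed-mean scaling (0.0449) and the fit without VC and DZNep replicate 1 (0.0147), over a range of 0.0147 to 0.3. The 2 VC with DZNep libraries lay further apart than those of any other group, and SF3B1 in that group was not called against PBS (0.11, 95% interval -0.16 to 0.38) or against VC (0.02, -0.25 to 0.29). The interaction estimate for SF3B1 was 0.49 ± 0.172 (limma adjusted p = 0.597).

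SF3A2, a subunit of SF3A, had 208 and 190 units with VC and DZNep, 171 and 190 with DZNep, 241 and 274 with VC, and 290 and 231 with PBS. All libraries with DZNep lay below all without it, and the call was made in DZNep against PBS (log2 fold change -0.52 ± 0.134 SE, limma adjusted p = 0.0306). The SF3A2 call was lost without VC and DZNep replicate 1 or 2 (0.0514 and 0.0511), DZNep replicate 1 or 2 (0.164 and 0.0919), PBS replicate 1 (0.154), the trend (0.0852) or the other groups (0.109), over a range of 0.0203 to 0.164. SF3A3, the third SF3A subunit, had 352 and 336, 383 and 330, 442 and 436, and 413 and 424 units with VC and DZNep, DZNep, VC and PBS. It too was lower in every library with DZNep and was called in VC with DZNep against VC (-0.35 ± 0.0989, limma adjusted p = 0.0382). That call was lost without VC and DZNep replicate 1 or 2 (0.0928 and 0.169), VC replicate 1 or 2 (0.181 and 0.152) or the trend (0.106), over a range of 0.0321 to 0.181. With VC and DZNep against PBS no SF3 subunit was called, and their log2 fold changes ran from -0.44 (SF3B5) to 0.22 (SF3B4).

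U2AF2, the large U2AF subunit that binds the pyrimidine tract, had 596 and 490 units with VC and DZNep, 506 and 498 with DZNep, 450 and 456 with VC, and 444 and 368 with PBS. Its libraries with DZNep were all above those without it, and it was called higher in VC with DZNep against PBS (log2 fold change 0.42 ± 0.119 SE, limma adjusted p = 0.0328). The U2AF2 call was lost without VC and DZNep replicate 1 (0.201), DZNep replicate 1 or 2 (0.058 and 0.0594), VC replicate 1 or 2 (0.0552 and 0.0553), PBS replicate 2 (0.169), the trend (0.102) or the other groups (0.129), over a range of 0.0198 to 0.201. U2AF1L4, a paralog of the small subunit, had 20 and 13, 26 and 8, 19 and 10, and 10 and 8 units and was not called. U2AF1 itself and PRPF8, the central scaffold of the spliceosome, were not analysed here.

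**Figure D3:**
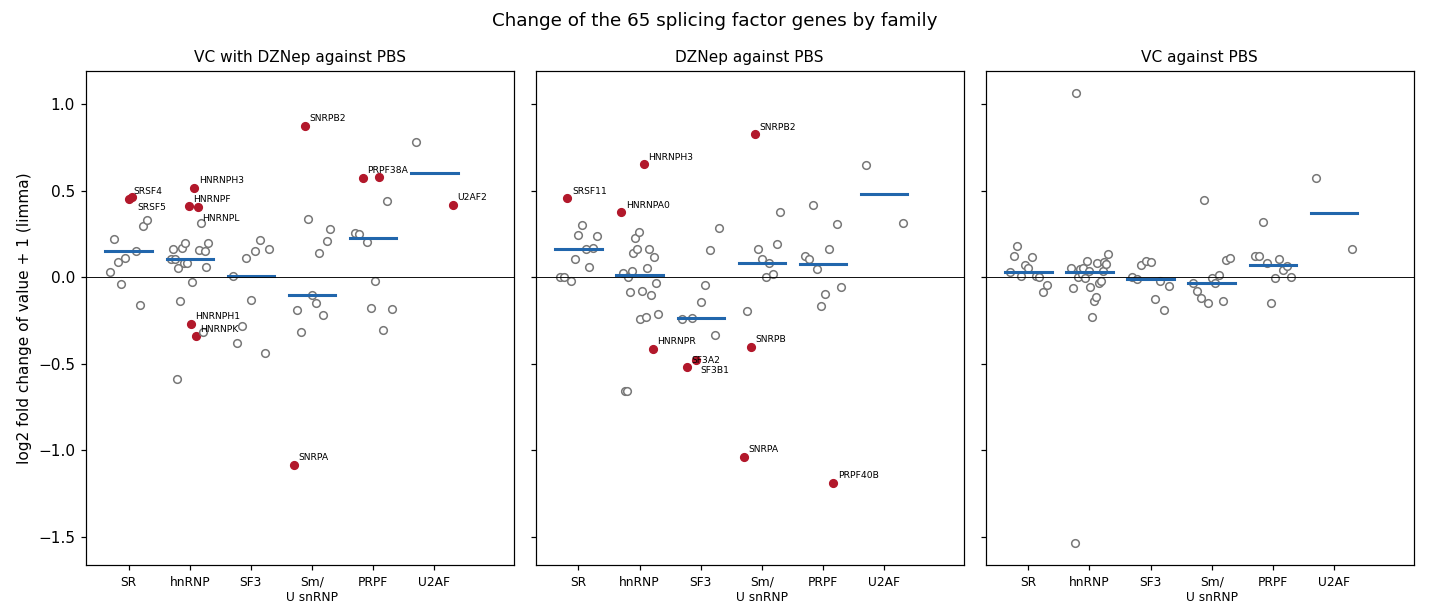
Log2 fold change of value + 1 (vertical axis) of each of the 65 splicing factor genes by family, in VC with DZNep, DZNep and VC, each against PBS. Filled points passed limma's adjusted p under 0.05 and are named except for 1 gene, open points did not pass, and lines mark family medians, with SR proteins at 0.15, 0.17 and 0.03 and SF3 subunits at 0.01, -0.23 and -0.01.

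PRPF40B, a relative of the yeast U1 snRNP protein Prp40 (ENSG00000110844, chr12:49568218-49644666, plus strand), had 30 and 22 units with VC and DZNep, 14 and 13 with DZNep, 39 and 28 with VC, and 38 and 27 with PBS. The libraries of DZNep alone were lowest, and the other groups overlapped. PRPF40B was 2.28-fold lower with DZNep than with PBS (log2 fold change -1.19 ± 0.285 SE, limma adjusted p = 0.0222). That call was lost without DZNep replicate 1 or 2 (0.0824 and 0.112), PBS replicate 1 (0.126) or the other groups (0.0766), over a range of 0.0131 to 0.126 in 16 alternatives. FMNL3, a formin gene with exons on the other strand of PRPF40B, had 31 and 38, 38 and 28, 61 and 66, and 73 and 62 units with VC and DZNep, DZNep, VC and PBS, and it was lower in DZNep against PBS too (log2 fold change -1.02, limma adjusted p = 0.0108). FMNL3 was also called lower in VC with DZNep against PBS (-0.95, limma adjusted p = 0.0104) and against VC (-0.87, 0.0188), where PRPF40B was not called. Without strand, reads of such a pair cannot be told apart, and their part in the PRPF40B value was not tested. The FMNL3 call in DZNep against PBS was itself lost without DZNep replicate 2 (0.0831), PBS replicate 1 (0.0648) or the other groups (0.0587), over a range of 0.00745 to 0.0831. RUFY2 and PLEKHJ1, which overlap HNRNPH3 and SF3A2 in the same way, were not called in these comparisons.

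PRPF38A, a protein that joins the spliceosome for its activation, had 240 and 312 units with VC and DZNep, 224 and 268 with DZNep, 227 and 231 with VC, and 171 and 196 with PBS. The PBS libraries were the lowest of the 8. It was higher in VC with DZNep against PBS (log2 fold change 0.58 ± 0.145 SE, limma adjusted p = 0.0202), a call lost without VC and DZNep replicate 2 (0.161), PBS replicate 1 (0.104), the trend (0.0654) or the other groups (0.0864), over a range of 0.00673 to 0.161. In VC with DZNep against PBS the uncalled PRPF genes ran from -0.31 (PRPF40B) to 0.44 (PRPF4B, a kinase of the tri-snRNP, limma adjusted p = 0.0605).

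SR proteins, which bind exonic enhancers through RNA recognition motifs and recruit the spliceosome through serine-arginine domains, had few calls. In VC with DZNep against PBS 2 of 11 rose and 0 fell (9.52% and 10.2% of all genes), in DZNep against PBS 1 rose and 0 fell (6.42% and 6.63%), and in VC with DZNep against VC 3 rose and 0 fell (6.89% and 8.14%). The median log2 fold changes of the family were 0.15, 0.17 and 0.10, against 0.01, 0.01 and 0.01 over all genes. SRSF4 had 267 and 271 units with VC and DZNep, 224 and 241 with DZNep, 186 and 223 with VC, and 194 and 198 with PBS. SRSF5 had 287 and 308, 260 and 271, 239 and 227, and 208 and 222 units in the same groups. For both genes the combination was highest and DZNep alone came next, above every library without DZNep.

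SRSF5 rose in VC with DZNep against PBS (log2 fold change 0.47 ± 0.101 SE, limma adjusted p = 0.0101), a call lost without VC and DZNep replicate 2 (0.0756) or the other groups (0.0545), over a range of 0.00966 to 0.0756. SRSF4 rose there by a similar amount (0.45 ± 0.115, limma adjusted p = 0.0208), a call lost without VC and DZNep replicate 1 or 2 (0.0836 and 0.102), PBS replicate 1 or 2 (0.0726 and 0.0562), the trend (0.0578) or the other groups (0.0506), over a range of 0.0165 to 0.102. Against VC, the log2 fold changes with VC and DZNep were 0.40 for SRSF4 (limma adjusted p = 0.0416), 0.35 for SRSF5 (0.0417) and 0.38 for SRSF8 (0.0394). These 3 calls held in 9 of 17 alternatives each. The SRSF4 call against VC was lost without VC and DZNep replicate 1 or 2 (0.131 and 0.169), DZNep replicate 1 or 2 (0.0609 and 0.0616), VC replicate 1 or 2 (0.296 and 0.053), the trend (0.0914) or the other groups (0.088), over a range of 0.0338 to 0.296. The SRSF5 call was lost without the same libraries (0.0865, 0.198, 0.0588, 0.0588, 0.137 and 0.216, in that order), the trend (0.0903) or the other groups (0.0627), over a range of 0.0361 to 0.216. For SRSF8 the values without them were 0.0897, 0.187, 0.0532, 0.0524, 0.158 and 0.181, with 0.0725 without the trend and 0.0593 without the other groups, over a range of 0.0304 to 0.187. SRSF8, which arose as a copy of SRSF2, had 200 and 214, 196 and 182, 160 and 157, and 172 and 164 units with VC and DZNep, DZNep, VC and PBS.

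SRSF11 had its highest values under DZNep alone. It had 1826 and 1749 units with VC and DZNep, 2458 and 2168 with DZNep, 1903 and 1903 with VC, and 1548 and 1826 with PBS. SRSF11 was 1.37-fold higher with DZNep than with PBS (log2 fold change 0.46 ± 0.0944 SE, limma adjusted p = 0.0116), a call lost without DZNep replicate 1 (0.0843), PBS replicate 1 (0.06), the trend (0.0793) or the other groups (0.0634), over a range of 0.00889 to 0.0843. With VC added to DZNep its log2 fold change was -0.37 ± 0.0944 (limma adjusted p = 0.118), and it passed in 0 of 17 alternatives (0.0698 to 0.398).

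SRSF1, SRSF2 and SRSF3 were called in no comparison. SRSF1 had 380 and 406 units with VC and DZNep, 380 and 390 with DZNep, 392 and 392 with VC, and 392 and 377 with PBS. SRSF2, which is mutated in myeloid neoplasms, had 455 and 456, 456 and 468, 472 and 468, and 468 and 468 units in the same groups. For SRSF2 the log2 fold change in VC with DZNep against PBS was -0.04 with a 95% interval of -0.22 to 0.14, and for SRSF1 it was 0.03 with -0.17 to 0.23. SRSF3 had 622 and 698, 652 and 660, 652 and 628, and 540 and 686 units, and its interval in that comparison was -0.14 to 0.37. The smallest limma adjusted p over the comparisons was 0.837 for SRSF1, 0.761 for SRSF2 and 0.525 for SRSF3, which does not show that they were equal.

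Among the hnRNPs, which coat nascent RNA and often silence splice sites, 3 of 22 rose and 2 fell in VC with DZNep against PBS (9.52% and 10.2% of all genes), 2 rose and 1 fell in DZNep against PBS (6.42% and 6.63%), and 4 rose and 0 fell in VC with DZNep against VC (6.89% and 8.14%). HNRNPH3 (ENSG00000096746, chr10:68331174-68343191, plus strand), a member of the G-tract binding H and F subgroup, had 416 and 420 units with VC and DZNep, 450 and 468 with DZNep, 268 and 262 with VC, and 282 and 301 with PBS. All 4 libraries with DZNep were far above the 4 without it, whose values were close together. HNRNPH3 was 1.57-fold higher with DZNep than with PBS (log2 fold change 0.65 ± 0.0909 SE, limma adjusted p = 0.0018), 1.43-fold higher with VC and DZNep than with PBS (0.52 ± 0.0909, 0.00337) and 1.58-fold higher with VC and DZNep than with VC (0.66 ± 0.0909, 0.00112). These calls held in 17 of 17 alternatives in each comparison. RUFY2, on the other strand, had 70 and 51, 46 and 53, 30 and 41, and 40 and 33 units with VC and DZNep, DZNep, VC and PBS. Its log2 fold change was 0.70 in VC with DZNep against PBS (limma adjusted p = 0.0557) and 0.75 against VC (0.0519). In DZNep against PBS it was 0.43 (0.25), so all had the direction of HNRNPH3 and none was called. Without strand, reads of this pair cannot be told apart, and their part in the HNRNPH3 value was not tested.

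HNRNPF and HNRNPH1, of the same subgroup, were called in opposite directions. HNRNPF had 1012 and 1032 units with VC and DZNep, 900 and 943 with DZNep, 752 and 828 with VC, and 752 and 784 with PBS. HNRNPH1 had 1172 and 1122, 1215 and 1122, 1376 and 1280, and 1324 and 1443 units in the same groups. HNRNPF was higher, and HNRNPH1 lower, in every library with DZNep than in every library without it. HNRNPF rose in VC with DZNep against PBS (log2 fold change 0.41 ± 0.0825 SE, limma adjusted p = 0.0068), with the call lost only without the trend (0.0524) among 17 alternatives that began at 0.00566. Against VC its log2 fold change was 0.37 (limma adjusted p = 0.0136), a call lost without VC and DZNep replicate 2 (0.0671), VC replicate 1 (0.131) or the trend (0.0791), over a range of 0.0114 to 0.131. HNRNPH1 fell in VC with DZNep against PBS (-0.27 ± 0.0837, limma adjusted p = 0.0461), a call lost without VC and DZNep replicate 1 or 2 (0.0805 and 0.157), VC replicate 1 or 2 (0.0684 and 0.0682), PBS replicate 1 or 2 (0.0501 and 0.175), the trend (0.162) or the other groups (0.0891), over a range of 0.0419 to 0.175.

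HNRNPL, which binds CA-rich RNA, was highest where VC and DZNep were combined, at 420 and 432 units, with 326 and 340 under DZNep, 338 and 342 under VC, and 310 and 333 under PBS. It rose against PBS (log2 fold change 0.41 ± 0.0914 SE, limma adjusted p = 0.0121) and against VC (0.32 ± 0.0914, 0.0383), while its difference from DZNep alone was not called. The HNRNPL call against PBS was lost without VC and DZNep replicate 2 (0.0711), PBS replicate 1 (0.056) or the other groups (0.0569), over a range of 0.0121 to 0.0711. Against VC it was lost without any 1 of the VC and DZNep libraries (0.0998 and 0.156), DZNep libraries (0.0517 and 0.0515) or VC libraries (0.183 and 0.156) or the trend (0.0998), over a range of 0.0326 to 0.183. HNRNPK, which binds C-rich RNA and DNA, had 3109 and 3109 units with VC and DZNep, 3646 and 3109 with DZNep, 3646 and 3646 with VC, and 3646 and 4260 with PBS. It fell in VC with DZNep against PBS (-0.34 ± 0.0941, limma adjusted p = 0.0292), where 1 step of the common distribution near these values is 0.23 down and 0.22 up on the log2 scale. That HNRNPK call was lost without VC and DZNep replicate 1 or 2 (0.0891 and 0.0971), PBS replicate 2 (0.148), the trend (0.13) or the other groups (0.0658), over a range of 0.0181 to 0.148.

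HNRNPA0 and HNRNPR were called with DZNep alone. HNRNPA0, which binds AU-rich messages, had 308 and 333 units with VC and DZNep, 402 and 370 with DZNep, 299 and 317 with VC, and 296 and 298 with PBS. It was higher in DZNep against PBS (log2 fold change 0.38 ± 0.0974 SE, limma adjusted p = 0.0307), with the DZNep libraries above all others. The HNRNPA0 call was lost without DZNep replicate 1 or 2 (0.15 and 0.0746), VC replicate 1 or 2 (0.0559 and 0.0562), PBS replicate 1 or 2 (0.0869 and 0.0808), the trend (0.0881) or the other groups (0.0954), over a range of 0.0295 to 0.15. HNRNPR had 638 and 652, 571 and 638, 870 and 784, and 718 and 900 units with VC and DZNep, DZNep, VC and PBS. It was lower in DZNep against PBS (-0.41 ± 0.115, limma adjusted p = 0.0407), and its libraries with DZNep were all below those without. The HNRNPR call was lost without VC and DZNep replicate 1 or 2 (0.0627 and 0.0625), DZNep replicate 1 or 2 (0.206 and 0.0946), VC replicate 1 or 2 (0.0605 and 0.0603), PBS replicate 2 (0.193), the trend (0.13) or the other groups (0.128), over a range of 0.0186 to 0.206.

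HNRNPA1, HNRNPC and HNRNPA2B1 were called in no comparison. HNRNPA1, which binds splicing silencers, had 1548 and 1548 units with VC and DZNep, 1281 and 1548 with DZNep, 1324 and 1324 with VC, and 1324 and 1444 with PBS. HNRNPC, which binds uridine tracts, had 4795 and 4795, 5185 and 4795, 5184 and 4264, and 4795 and 4264 units, and HNRNPA2B1 had 4794 and 5184, 4795 and 4794, 4794 and 4794, and 4794 and 4794 units in the same groups. Their smallest limma adjusted p over the comparisons was 0.14, 0.378 and 0.587. HNRNPA2B1 and HNRNPC lie where neighbouring levels are 0.17 down and 0.11 up on the log2 scale.

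HNRNPA1L2 and HNRNPA1P48 are close copies of HNRNPA1. How the counting treated reads that fit more than 1 of them is not given in the sources used here, so their values are uncertain. HNRNPA1L2 had 271 and 315 units with VC and DZNep, 112 and 264 with DZNep, 73 and 119 with VC, and 224 and 330 with PBS. HNRNPA1P48 had 34 and 37, 80 and 14, 135 and 96, and 44 and 66 units in the same groups. Under VC alone HNRNPA1L2 had its lowest mean and HNRNPA1P48 its highest, and the libraries of DZNep alone were far apart for both. HNRNPA1L2 was called in VC with DZNep against VC (log2 fold change 1.64 ± 0.351 SE, limma adjusted p = 0.0117), where HNRNPA1P48 had -1.66 ± 0.579 (0.0812). The HNRNPA1L2 call was lost without VC and DZNep replicate 1 or 2 (0.0635 and 0.104), VC replicate 1 (0.105) or the trend (0.0584), over a range of 0.000494 to 0.105.

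The effect of VC on splicing factor genes was asked without and with DZNep. Without DZNep, the smallest p-values were those of HNRNPA1L2 (log2 fold change -1.53), SNRPB2 (0.45) and PRPF38A (0.32), each with a limma adjusted p of 0.954. The VC libraries of these 3 genes lay apart from the PBS libraries, lower for HNRNPA1L2 and higher for the others. The genes were picked by their p-values in this comparison, so that separation adds no support. Other uncalled genes, such as HNRNPL and SF3B2, were separated there too, and the share over all genes was not counted. With DZNep present, SF3B1 (0.59) and SRSF11 (-0.37) had 2 of the 3 smallest p-values, and none passed. For the difference between these VC effects, the smallest limma adjusted p was 0.246 for HNRNPA1L2 (2.29 ± 0.496 SE), followed by 0.34 for SRSF11 (-0.55 ± 0.133) and 0.597 for SF3B1.

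**Figure D4:**
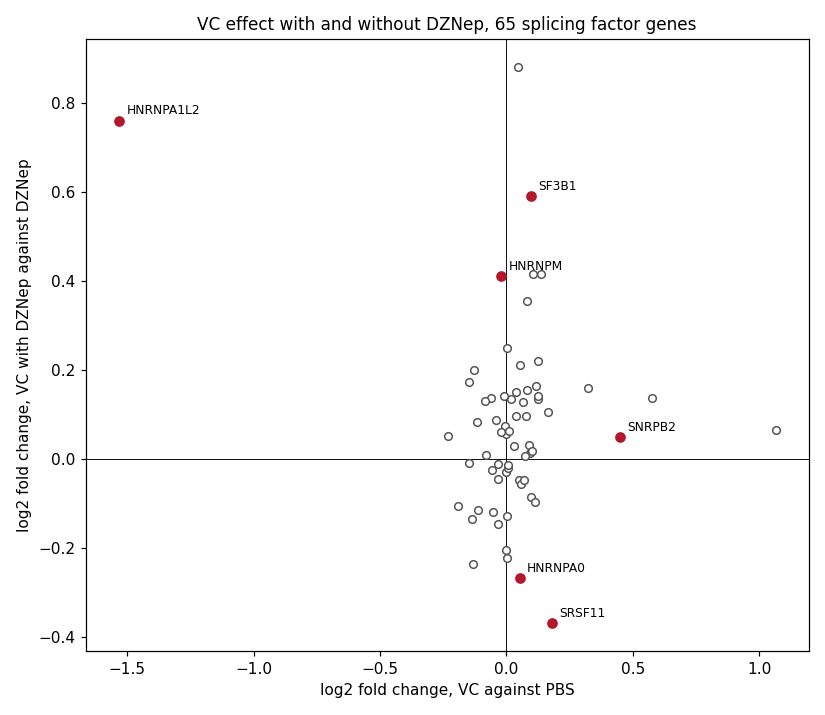
Log2 fold change of VC against PBS (horizontal axis) and of VC with DZNep against DZNep (vertical axis) for the 65 splicing factor genes, 1 point per gene. The 6 filled, named points have an unadjusted interaction p under 0.05, and none has an adjusted p under 0.05, with SF3B1 at 0.10 and 0.59 and SRSF11 at 0.18 and -0.37.

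Genes that work with these families were counted in 6 lists. Over all genes tested, 9.52% were called higher and 10.2% lower in VC with DZNep against PBS, 19.7% in all, and 6.42% higher and 6.63% lower in DZNep against PBS, 13.1% in all. Proteins of snRNP assembly and import had 5 higher and 1 lower of 16 tested in VC with DZNep against PBS, with a median log2 fold change of 0.37 against 0.01 over all genes. In DZNep against PBS 3 of the 16 rose and 0 fell. GEMIN5, the subunit of the SMN complex that recognises snRNAs, had 228 and 214 units with VC and DZNep and 237 and 268 with DZNep. It had 150 and 157 with VC, and 148 and 163 with PBS. In DZNep against PBS it rose by 0.69 on the log2 scale (limma adjusted p = 0.00389, called in 17 of 17 alternatives). In VC with DZNep against PBS it rose by 0.51 (limma adjusted p = 0.0126), a call lost with only the libraries compared (0.0568). CLNS1A, the chaperone pICln that holds Sm proteins before assembly, had 328 and 278, 560 and 578, 596 and 548, and 670 and 610 units in the same groups. It was lowest in the combination and fell against PBS (-1.08, limma adjusted p = 9.41e-05) and against DZNep alone (-0.91, 0.00433). Its call against DZNep was lost without DZNep replicate 1 or 2 (0.107 and 0.0737), the trend (0.106) or the other groups (0.0965), over a range of 0.00175 to 0.107.

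Of 12 genes for SR protein kinases, import and arginine methylation, 3 rose and 0 fell in VC with DZNep against PBS (9.52% and 10.2% of all genes), and 1 rose and 0 fell in DZNep against PBS (6.42% and 6.63%). CLK1, a kinase of SR proteins, had 205 and 226 units with VC and DZNep, 148 and 144 with DZNep, 132 and 130 with VC, and 104 and 80 with PBS. Its 4 groups did not overlap, and it was 2.34-fold higher with VC and DZNep than with PBS (1.23 on the log2 scale, limma adjusted p = 0.000291, called in 17 of 17 alternatives). In DZNep against PBS its log2 fold change was 0.67 (limma adjusted p = 0.0126), a call lost without DZNep replicate 1 or 2 (0.0792 and 0.0747), PBS replicate 2 (0.0606) or the other groups (0.081), over a range of 0.00949 to 0.081.

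Other splicing regulators, 40 genes, had 2 higher and 6 lower in VC with DZNep against PBS (19.7% of all genes called), and 3 higher and 3 lower in DZNep against PBS (13.1%), shares near those of all genes. SON, a nuclear speckle protein needed for weak splice sites, had 2168 and 2170 units with VC and DZNep, 1749 and 1548 with DZNep, 1172 and 1215 with VC, and 1056 and 1057 with PBS. PCBP2, a poly(C) binding relative of HNRNPK, had 1750 and 1280, 1826 and 1548, 2726 and 2460, and 3114 and 3114 units in the same groups. In VC with DZNep against PBS SON rose by 1.04 (limma adjusted p = 2.08e-05) and PCBP2 fell by 1.06 (0.000515) on the log2 scale, and both calls held in 17 of 17 alternatives. YBX1, an RNA-binding protein with a cold shock domain, rose by 0.77 in both comparisons against PBS (limma adjusted p = 4.38e-05 with VC and DZNep and 0.000134 with DZNep), also in 17 of 17.

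In the remaining lists too the counts stand against 19.7% of all genes called in VC with DZNep against PBS and 13.1% in DZNep against PBS. Of 38 other U snRNP and complex A or B proteins, 4 rose and 1 fell in each comparison against PBS that included DZNep. Of 32 catalytic spliceosome and exon junction proteins, 5 rose and 1 fell with VC and DZNep and 4 rose and 1 fell with DZNep. SRRM2, a large scaffold of nuclear speckles, was 0.66 higher with VC and DZNep than with PBS on the log2 scale (limma adjusted p = 0.00493, called in 17 of 17 alternatives). In DZNep against PBS SRRM2 was 0.60 higher (limma adjusted p = 0.0113), a call lost without the trend (0.0732) or the other groups (0.056). Of 11 proteins of the minor spliceosome, which removes a rare class of introns, 1 rose and 1 fell with VC and DZNep and none passed with DZNep alone. In VC against PBS no gene of the 6 lists was called.

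**Figure D5:**
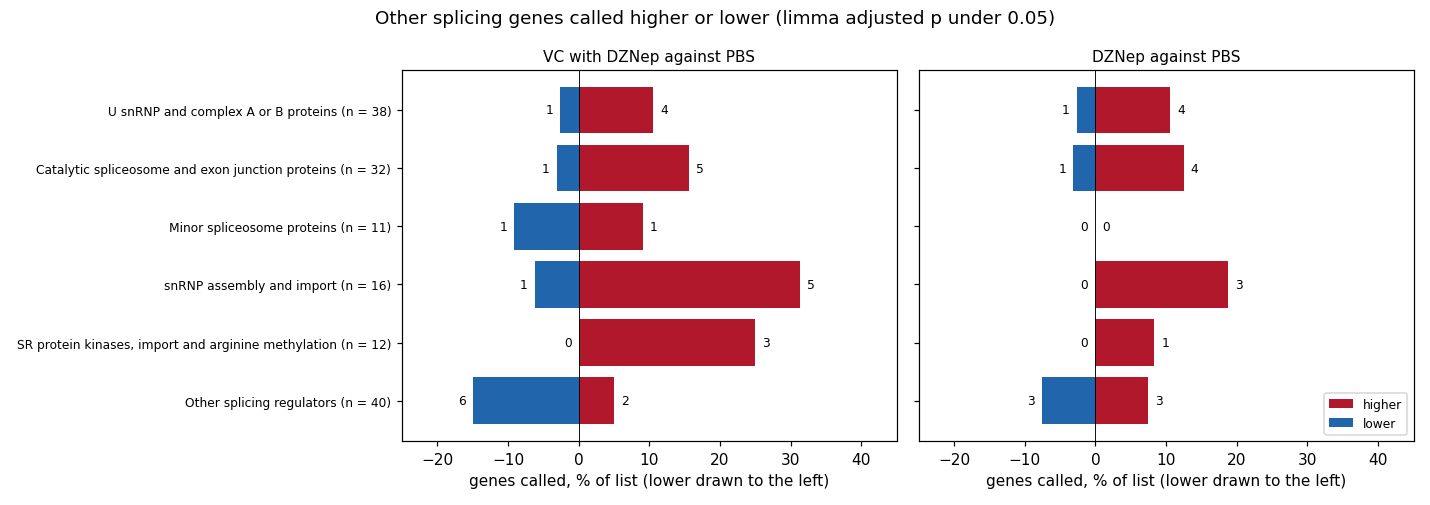
Share of each of 6 lists of other splicing genes called higher (right of 0) or lower (left of 0) by limma at an adjusted p under 0.05, with the number of genes at the bar end, in VC with DZNep and in DZNep, each against PBS. The snRNP assembly list (16 genes) has 5 and 3 called higher and 1 and 0 lower. Other splicing regulators (40 genes) have 2 and 3 called higher and 6 and 3 lower. Over all genes tested 9.52% and 6.42% were called higher and 10.2% and 6.63% lower.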

How the data were processed

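RNA of HL60 cells was extracted with Trizol and sequenced after an Illumina TruSeq preparation, per the labels' protocols. Tools in the submitters' processing notes are DESeq 1.18.1, HTSeq 0.6.0, HISAT2 2.0.4 and SAMtools 1.3.1, on hg38 or GRCh38. The sheet name of the deposited table adds EDASeq. The annotation, the gene filter and the EDASeq settings are not given in the sources used here. The deposited values are whole numbers that all 8 libraries share once sorted, so they were taken as a normalized score and no count model was used. In 80 of 80 combinations of gene-span decile and library, the 10 highest values fell 1 in each decile. Any shift common to most genes is lost in such values. Columns headed control were taken as the PBS group, the one drug-free group in the labels.

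The tool was limma 3.58.1 (R 4.3.3), run on log2(value + 1). Genes with a mean under 10 were dropped (30 of 9543), and all 65 splicing factor genes were tested. The fit took all 8 libraries, with a mean for each group and a prior variance that follows intensity; degrees of freedom were 4 residual and 6.46 prior. Each of 6 comparisons had two-sided p-values with Benjamini-Hochberg adjustment over 9513 genes and a threshold of 0.05. Coordinates and overlaps come from GENCODE 29. The 17 alternatives were other pseudocounts, filters and scalings, no trend, only the libraries compared (without the other groups), a replicate block, and each library left out. Where a group kept 1 library, it was assumed to vary like the others.

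Genes and lists were chosen with earlier results of these data known. Named were every member past the threshold, the 3 smallest p-values where fewer than 3 passed, and 12 fixed genes (10 measured). Of the other lists only some called genes were named, mostly with calls that held in every alternative. Among those left out, TNPO3 in VC with DZNep against PBS and WDR77 in DZNep against PBS lost their calls without the trend (limma adjusted p = 0.0952 and 0.0589). CASC3 kept its call in VC with DZNep against PBS without the trend. The values of 1 called gene are not reported here, though it is in all counts, medians and fits. RefSeq windows were used for motifs.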

Additional observations from a re-analysis of the deposited data

How the results depend on the processing

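Of 727 single-gene values recomputed under the alternatives, 581 kept their direction and their side of the threshold, 141 kept the direction and lost the call, 5 kept it and gained the call, and 0 changed sign. Those values include genes named without a call in VC against PBS, VC with DZNep against DZNep and the interaction. Such genes count as kept when they stay uncalled, so the 141 losses come only from called genes. Without the intensity trend, 6 splicing factor genes were called in VC with DZNep against PBS, or 9.23% against 13.9% of all genes. In DZNep against PBS 4 were called (6.15% against 7.77%), and in VC with DZNep against VC 3 (4.62% against 9.76%). With only the libraries compared, 5 were called in VC with DZNep against PBS (7.69% against 9.4%) and 4 in DZNep against PBS (6.15% against 4.77%). In VC with DZNep against VC 12 were then called (18.5% against 11.3%), 7 higher and 5 lower, 8 shared with the 12 reported. In VC with DZNep against DZNep 1 gene, SF3B1, was called after median-of-ratios scaling, after trimmed-mean scaling and with the replicate block. Leaving out 1 library gave 6 to 11 calls in VC with DZNep against PBS, 4 to 8 in DZNep against PBS, 2 to 13 in VC with DZNep against VC, 0 to 1 in VC with DZNep against DZNep, and 0 to 0 in VC against PBS and in the interaction. Same-numbered libraries showed little shared deviation over all genes tested (correlations of -0.0467 to 0.091), and the reported fit did not pair them. This check cannot show whether same-numbered libraries were handled together. The fit with the replicate block called 13 genes in VC with DZNep against PBS (20% against 20.4% of all genes). It called 12 in DZNep against PBS (18.5% against 14.4%) and 12 in VC with DZNep against VC (18.5% against 15.9%). It also called 1 in VC with DZNep against DZNep, 0 in VC against PBS and 1 in the interaction. The gene was SF3B1 against DZNep (limma adjusted p = 0.0418, with 0.0147 to 0.3 over its alternatives) and HNRNPA1L2 in the interaction (0.0319, with 0.0319 to 0.781). The cause of these differences was not tested. Read depth is unknown, and among the highest values the levels of the common distribution are far apart.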
